A study of Mus musculus with 8 samples.

Results

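Imprinted genes of 5 chromosomal clusters were followed through mitosis and into G1 in mouse induced pluripotent stem cells (iPSCs), reprogrammed cells that self-renew much as embryonic stem cells do. The 10 genes were taken from the count table as the rows whose Ensembl gene ID maps to Dlk1, Meg3, Rtl1, Rian, Mirg, H19, Igf2, Peg3, Peg10 or Mest. All 10 were found among 54838 genes, and all 10 passed the filter on low counts that left 19101 genes for testing. The cells were male, came from 2 independent clones that the labels name as biological replicates, and were grown on feeder cells in serum and LIF with the 2 inhibitors known as 2i. The titles of the samples use the word ESC, whereas the protocols describe iPSCs, and the name from the protocols is used here. Asynchronous cells were left cycling. Mitotic cells had been moved onto gelatin, held in nocodazole, a drug that blocks microtubule growth, at 200 ng/ml for 6 h, and shaken off the dish. The early G1 and late G1 samples were taken after the drug had been washed out, read from the protocol as 1 h and 3 h. Each state had n = 2 libraries, and 2 clones are a narrow sample of iPSC lines. A p-value of the main analysis measures a spread between replicates that is pooled over the 4 states. For each gene that spread is also drawn towards the spread of other genes. The states differed in their own spread, as given below.

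Imprinted genes are transcribed mainly from the chromosome inherited from 1 parent, and the choice is held by DNA methylation at imprinting control regions through every division. The Dlk1-Dio3 cluster on the distal part of mouse chromosome 12 makes the proteins Dlk1, Rtl1 and Dio3 from the paternal copy, and the noncoding RNAs Meg3 (also called Gtl2), Rian and Mirg, with many small RNAs, from the maternal copy. In mouse iPSCs the cluster is known as a region where clones can lose the maternal noncoding RNAs. In the H19-Igf2 cluster a shared set of enhancers serves the maternal noncoding RNA H19 or the paternal growth factor gene Igf2. Peg3, Peg10 and Mest are paternally expressed and lie in 3 further clusters. The count table does not separate the parental copies, so allele of origin is background here and was not measured.

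Of the 10 genes 6 were called higher in mitotic than in asynchronous cells, where 18.3% of all genes tested were. Of the noncoding RNAs of the Dlk1-Dio3 cluster, Meg3 was called below and Rian above its asynchronous level in late G1. Meg3 and Rtl1 fell within 1 h of release and Peg10 went on rising, calls that rested on few libraries. Rian was at its highest level in early G1, a difference from mitosis that was not called in the main analysis. H19 was lower in every synchronised library than in either asynchronous one. Dlk1, Igf2 and Peg3 passed the test in no comparison of the main analysis. The plot of levels by library shows these courses.

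**Figure D1:**
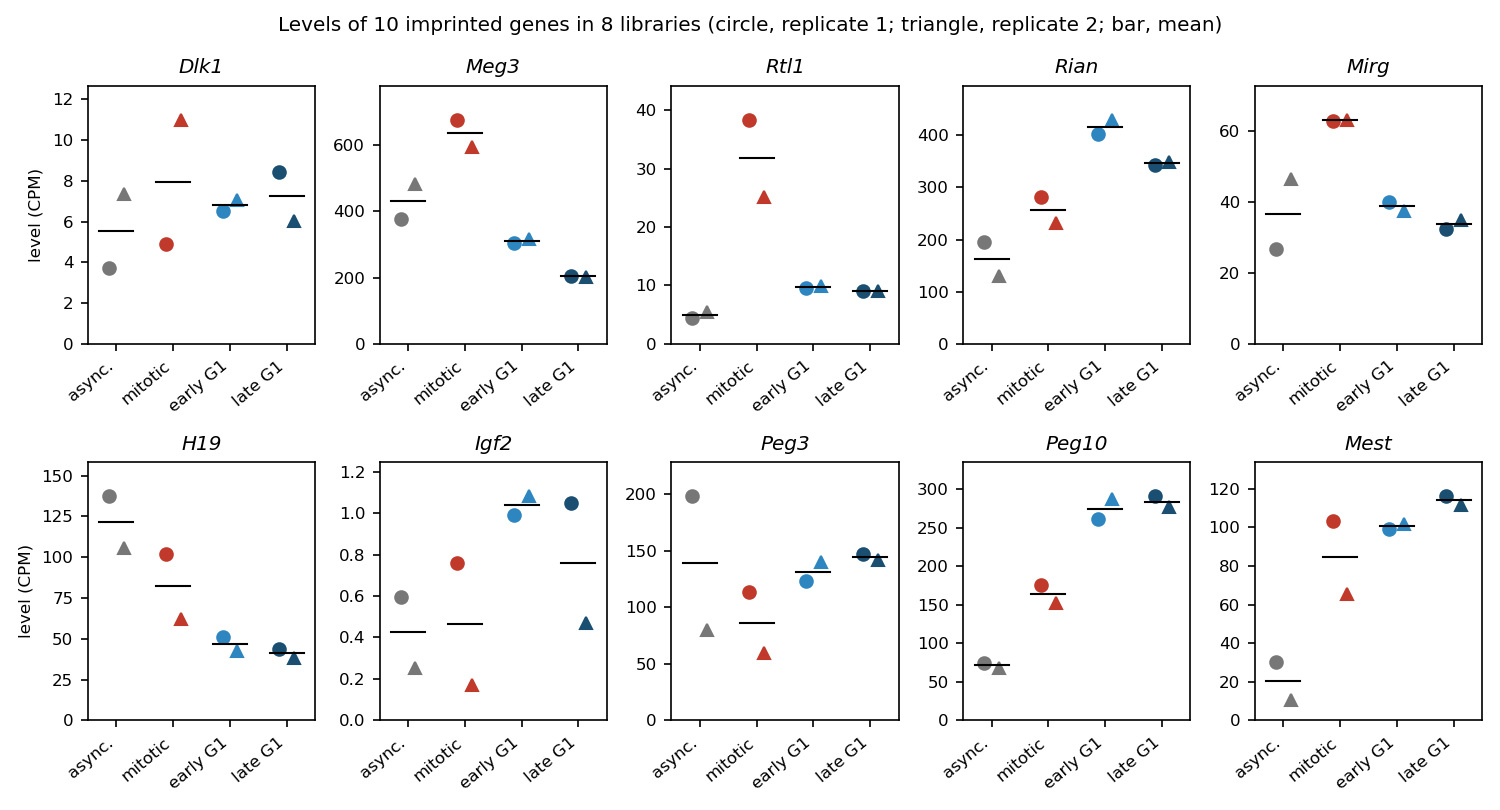
Level of each gene in CPM (normalised counts, scaled by TMM to the same library total, linear axis from 0) in the 4 states, with circles for replicate 1, triangles for replicate 2 and a bar for the mean. Meg3, Rtl1 and Mirg are highest in the mitotic libraries, Rian, Peg10 and Mest stay above their asynchronous levels in G1, and Dlk1, Igf2 and Peg3 have replicates that lie far apart.

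Libraries held 20410621 to 25615244 counts, and 3 counts, used as a floor for detection, corresponded to 0.116 to 0.152 CPM. This floor covers counting error only. The replicates of early and late G1 lay close together, with biological coefficients of variation of 0.0506 and 0.0417, whereas those of mitotic cells (0.183) and asynchronous cells (0.292) lay further apart. All 15 pluripotent cell markers in a list that included Pou5f1, Nanog and Sox2 were at or above 1 CPM in every library. The synchronised cells had been moved off the feeder layer, and the asynchronous libraries held more fibroblast RNA. The level of Col1a1, a collagen of fibroblasts, was 509 and 554 CPM in asynchronous libraries and 5.96 to 21.5 CPM in the other 6. Summed over 25 feeder fibroblast markers, levels were 3918 and 4574 CPM in asynchronous libraries and 1728 to 2085 CPM elsewhere, where Fn1 and Sparc made up most of the sum. Lyz2, an enzyme of macrophages, was at 9.44 and 14.7 CPM in asynchronous, 28.7 and 30.8 CPM in mitotic and 0 to 0.756 CPM in G1 libraries. Of 14 macrophage markers 12 were below 1 CPM in each G1 library, 1 in each mitotic library and 3 or 5 in the asynchronous ones. Their summed levels, mostly Laptm5 and Cd68, were 247 and 320 CPM in asynchronous, 341 and 358 CPM in mitotic and 254 to 277 CPM in G1 libraries. From mitosis to early G1 11 of the 13 tested fell, together with Meg3 and Rtl1, and their part in those falls was not tested. Less RNA per cell and fewer cells of a type cannot be told apart in such bulk samples.

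Several genes overlap others on the opposite strand, which matters most for Rtl1. The kit marks strand, but the strand setting used for counting is not given in the sources used here. Short snRNA genes that lie in introns of genes with at least 10000 counts gave a check of it. Of those on the host gene's strand 83.9% of 62 had reads, and of those on the opposite strand 83.3% of 66 had reads, with summed counts of 555 and 572. Among miRNA genes the summed counts were 1796 over 157 genes and 78 over 29, with a median of 1 count in each set. The shares of these genes with reads were 65.0% and 69.0%. Among snoRNA genes they were 95.1% of 102 (median 29 counts) and 82.6% of 46 (median 3 counts). Genes of all 3 classes thus had reads on either strand, the classes differed in how much, and the check does not settle how the counting used strand. Rtl1 at chr12:109589193-109600330 on the minus strand (GRCm38, GENCODE M21) shares its exons with an antisense transcript of the maternal copy that carries 6 miRNA genes of the RefSeq table for GRCm38.p6, so the value of Rtl1 may include reads of either strand. The 11 mature miRNAs of these genes have 11 different seeds, and the full reverse complement of each was found once in the Rtl1 transcript of 6358 bases. They are shown because they are the known link between the maternal and the paternal transcripts of this region. The sequences of 6 follow, 5′ to 3′, with the seed, bases 2 to 8, in capitals.
mmu-miR-431-5p: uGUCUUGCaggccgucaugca
mmu-miR-433-3p: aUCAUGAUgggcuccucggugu
mmu-miR-127-3p: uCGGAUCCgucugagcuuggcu
mmu-miR-434-3p: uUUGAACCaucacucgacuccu
mmu-miR-432: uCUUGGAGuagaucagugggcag
mmu-miR-136-5p: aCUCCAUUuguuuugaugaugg
Their complements begin at bases 5072, 3749, 2642, 965, 523 and 199 of the Rtl1 transcript, in that order. The 7 miRNA genes annotated within Rtl1 by GENCODE were listed at 0 counts in all 8 libraries. A read there lies in an exon of Rtl1 as well, and how the counting treated such reads is not given in the sources used here.

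Per kilobase of exon, H19 was the most abundant of the 10 in asynchronous cells, at 49.5 ± 9.06 CPM per kb (SD, n = 2), followed by Meg3 at 23.8 ± 4.1. In mitotic cells Meg3 (35.1 ± 3.3) and H19 (33.4 ± 11.5) did not differ beyond their spread, and Peg10 (24.6 ± 2.5) and Mest (21.4 ± 6.8) came next. Peg10 led in G1, at 41.1 ± 2.6 CPM per kb early and 42.5 ± 1.5 late, followed by Mest, Rian and H19, and then by Meg3 at 17.1 ± 0.40 and 11.3 ± 0.15. In early G1 H19 (19.1 ± 2.3) and Meg3 did not differ beyond their spread. At the low end, Dlk1 and Rtl1 were between 0.767 and 1.53 CPM per kb in every state except mitosis, where Rtl1 reached 4.99 ± 1.48. Igf2 was the least abundant in every state, at 0.0743 to 0.181 CPM per kb. The order thus changed from noncoding RNAs on top in asynchronous and mitotic cells to Peg10 and Mest on top in G1.

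From asynchronous to mitotic cells 6 of the 10 genes rose and none fell, where 40.7% of all genes tested were called, 18.3% higher and 22.4% lower (edgeR quasi-likelihood test, Benjamini-Hochberg adjusted p under 0.05). The 6 were Meg3, Rian and Mirg of the 4 maternally expressed genes and Rtl1, Peg10 and Mest of the 6 paternally expressed ones. The median log2 fold change of the 10 was 0.61, against -0.05 over all genes. Over the 15 pluripotent cell markers, of which 9 rose and 2 fell, it was 0.62. Over the 24 feeder fibroblast markers tested, of which 1 rose and 20 fell, it was -3.81. The part of the fibroblast RNA in the rises of the 6 genes was not tested. In the first hour after release 2 fell (Meg3 and Rtl1) and 1 rose (Peg10), where 4.63% of genes were called, 3.21% higher and 1.42% lower, and the median of the 10 was 0.01 against -0.01. From early to late G1 0 of 10 were called and 0 of all genes (0% called), with 1 of the 10 and 724 of all genes at an unadjusted p under 0.05. DESeq2 called 0 of the 10 there and 27 of all genes, and a fit of the 2 G1 groups alone called Meg3, Rian and Mest among 1493 genes. From mitosis to late G1 4 of the 10 fell (Meg3, Rtl1, Mirg and H19) and Peg10 rose, where 9.48% of genes were called, 5.43% higher and 4.04% lower. Late G1 still differed from asynchronous cells in 6 of the 10, where 48.7% of genes were called, 22.7% higher and 26% lower. Rtl1, Rian, Peg10 and Mest were higher and Meg3 and H19 lower. In an F test for any difference between the 4 states 7 of the 10 were called, all but Dlk1, Igf2 and Peg3, where 48.5% of all genes were. The ranges of the 2 groups did not overlap for 7, 8, 6, 8 and 6 of the 10 in the 5 comparisons, in the order given, where 65.2%, 61.8%, 50.3%, 64.4% and 74.9% of all genes did not overlap. Comparisons that share a group of libraries are not independent of each other.

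**Figure D2:**
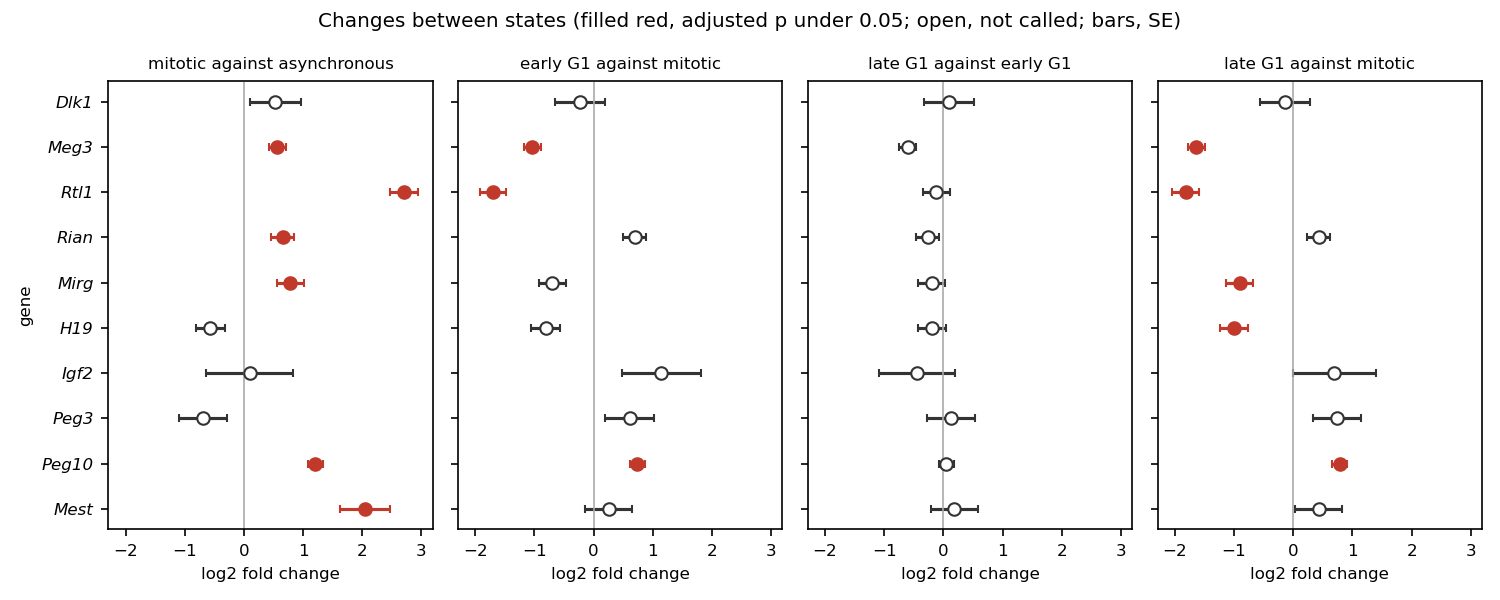
Log2 fold change with its standard error for each gene in 4 comparisons, filled red where the adjusted p was under 0.05 and open where it was not. Rtl1 has the largest change in the panels for mitotic against asynchronous, early G1 against mitotic and late G1 against mitotic (2.70, -1.70 and -1.82), and no gene is filled between early and late G1.

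Calls that involve the mitotic group rested on few libraries. Where a library was left out, the lone library of that state was assumed to vary like the other groups. With mitotic replicate 1 left out, Rtl1, Peg10 and Mest kept their calls against asynchronous cells, Meg3, Rian and Mirg lost theirs and H19 gained one. Fewer of all genes were called in that fit than with all libraries. In that fit the adjusted p was 0.0898 for Meg3, 0.15 for Rian and 0.0912 for Mirg. It was 0.0873 for Mirg without mitotic replicate 2, and 0.0524 and 0.0535 for Rian without either late G1 library. A fit of the asynchronous and mitotic groups alone called Rtl1, Peg10 and Mest, with 0.0803 for Meg3, 0.0865 for Rian and 0.0819 for Mirg. Of all genes it called 3883, against 7767 in the main analysis. For early G1 against mitosis 0 of the 10 were called without mitotic replicate 1 or without either early G1 library. Of all genes 54, 54 and 42 were called in those 3 fits, against 885 with all libraries. The adjusted p was then 0.0581, 0.106 and 0.114 for Rtl1, 0.0959, 0.129 and 0.13 for Meg3, and 0.0959, 0.135 and 0.235 for Peg10. Peg10 was also not called without mitotic replicate 2 (0.116) or either late G1 library (0.074 and 0.0738). Without either asynchronous library Rian, Mirg and H19 were called there as well, 6 in all, where 4431 and 4518 of all genes were called. The direction of each of these calls was the same in every one of those fits.

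Meg3 was the noncoding RNA with the clearest fall after mitosis. Its levels were 377 and 483 CPM in asynchronous, 676 and 593 CPM in mitotic, 305 and 315 CPM in early G1 and 206 and 202 CPM in late G1 libraries. No 2 states overlapped. Meg3 rose by a log2 fold change of 0.56 (SE 0.14, adjusted p = 0.0156) into mitosis and fell by 1.03 (SE 0.14, adjusted p = 0.0101) to early G1, a 2.05-fold difference. Its further change to late G1 was -0.60 (SE 0.14), with an unadjusted p of 0.0027 and an adjusted p of 0.952. In the fit of the 2 G1 groups alone, the same difference had an adjusted p of 7.3e-10. By late G1 Meg3 was 3.11-fold below mitosis (adjusted p = 0.0021) and 2.11-fold below asynchronous cells (adjusted p = 0.0008).

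Rian, the host of a large group of C/D box snoRNAs, took another course. Its levels were 196 and 130 CPM in asynchronous, 281 and 233 CPM in mitotic, 402 and 430 CPM in early G1 and 343 and 349 CPM in late G1 libraries. The states did not overlap here either, with early G1 highest. Rian rose into mitosis by 0.66 (SE 0.19, adjusted p = 0.0266), and its early G1 difference from mitosis was 0.70 (SE 0.19, adjusted p = 0.0804). That difference was called by DESeq2 (adjusted p = 0.0209), by voom (0.0017) and in the fit of the 2 groups alone (0.0089). In late G1 Rian stayed 2.13-fold above asynchronous cells (log2 fold change 1.09, SE 0.19, adjusted p = 0.0027).

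Mirg, the RNA at the far end that carries a dense group of miRNAs, followed Meg3 more closely. It was at 26.9 and 46.4 CPM in asynchronous, 62.9 and 63.2 CPM in mitotic, 40.1 and 37.5 CPM in early G1 and 32.5 and 35.0 CPM in late G1 libraries. The mitotic libraries were the highest, and the asynchronous pair spanned all the G1 values. Mirg rose into mitosis by 0.78 (SE 0.23, adjusted p = 0.0260). Its difference of -0.70 (SE 0.23) in early G1 had an adjusted p of 0.121, and by late G1 it had fallen by 0.90 (SE 0.23, adjusted p = 0.0463). That last call was lost without any 1 library of the mitotic, early G1 or late G1 groups (adjusted p 0.0963 to 0.268).

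The plot of counts relative to Meg3 sets these RNAs against each other within each library, where library scaling cancels. Per 100 Meg3 counts there were 51.9 and 26.9 Rian counts in asynchronous libraries and 41.5 and 39.3 in mitotic ones. The early G1 libraries had 132 and 137, the late G1 libraries 167 and 173. The Rian share of early G1 lay above the asynchronous and mitotic states in each library, and that of late G1 above early G1. Mirg counts per 100 Meg3 counts moved less, from 7.12 and 9.62 (asynchronous) and 9.3 and 10.7 (mitotic) to 13.2 and 11.9 (early G1) and 15.8 and 17.3 (late G1). With 2 libraries against 2 an exact permutation test cannot go below p = 0.333, so the ratios are given as a description.

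**Figure D3:**
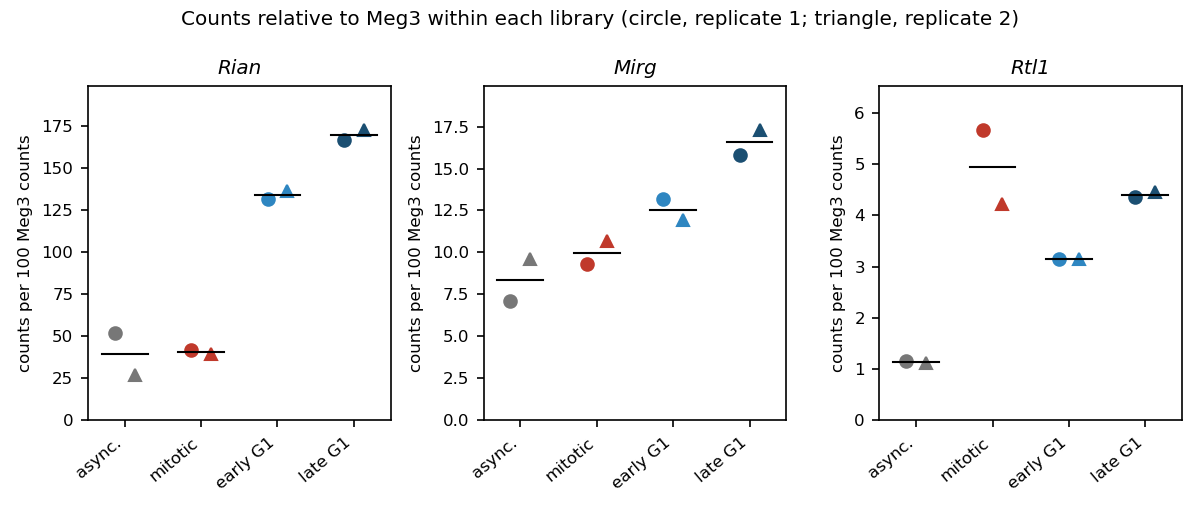
Counts of Rian, Mirg and Rtl1 per 100 Meg3 counts of the same library, by state, with circles for replicate 1, triangles for replicate 2 and a bar for the mean. The Rian share lies at 26.9 to 51.9 in asynchronous and mitotic libraries and at 132 to 173 in G1 libraries. The Rtl1 share lies at 1.11 to 1.16 in asynchronous libraries and 3.15 to 5.68 in the others.

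The 250 bases before the RefSeq start of Meg3 (chr12:109540746-109540995, plus strand, GRCm38.p6) lie within the promoter of the noncoding RNA among the 10 with the largest fall from mitosis, and are shown for the motifs they hold. Capitals mark TGCCGC, the core bound by the imprint protein ZFP57, here on the minus strand as GCGGCA, and the palindrome TGACGTCA, the cyclic AMP response element.
Meg3: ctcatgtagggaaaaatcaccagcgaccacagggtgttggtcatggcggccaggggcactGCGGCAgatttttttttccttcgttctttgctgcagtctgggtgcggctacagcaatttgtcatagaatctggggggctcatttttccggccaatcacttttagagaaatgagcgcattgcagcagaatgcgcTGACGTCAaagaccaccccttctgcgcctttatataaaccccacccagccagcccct
Searched on both strands, TGCCGC was in 11.6% and TGACGTCA in 1.8% of the 32851 promoter windows of 300 bases in the RefSeq table. Of the 10 genes 7 had a window there, 13 windows in all, and TGCCGC was in a window of Igf2, Meg3 and Mest and TGACGTCA in one of Meg3 and one of Peg3. The motifs were chosen after the sequences had been seen. Rtl1, H19 and Peg10 had no match in the table.

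Rtl1, a retrotransposon-derived protein needed for the placenta, had the largest change of the 10 at mitosis. Its levels were 4.38 and 5.37 CPM in asynchronous, 38.4 and 25.1 CPM in mitotic, 9.59 and 9.93 CPM in early G1 and 8.98 and 9.01 CPM in late G1 libraries. The mitotic pair stood above all others, and the 4 G1 libraries lay between them and the asynchronous pair. Rtl1 was 6.52-fold higher in mitotic than in asynchronous cells (log2 fold change 2.70, SE 0.24, adjusted p = 0.0002). It fell 3.25-fold by early G1 (-1.70, SE 0.22, adjusted p = 0.0086), changed by -0.12 (SE 0.22) from there to late G1, and remained 1.85-fold above asynchronous cells (0.89, SE 0.23, adjusted p = 0.0146). The last call was lost under voom (adjusted p = 0.103) and without either late G1 library (0.0672 and 0.0668). The call against mitosis in late G1 (-1.82, SE 0.22, adjusted p = 0.0048) was likewise lost without either late G1 library (0.0735 and 0.0721). Per 100 Meg3 counts Rtl1 had 1.16 and 1.11 counts in asynchronous, 5.68 and 4.23 in mitotic, 3.15 and 3.15 in early G1, with 4.36 and 4.46 in late G1 libraries. How much of this belongs to Rtl1 and how much to its antisense transcript cannot be told apart in these counts.

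Dlk1, a membrane protein that holds back differentiation and gives the cluster its name, stayed low and did not pass the test in any comparison of the main analysis. It was at 3.70 and 7.35 CPM in asynchronous, 4.89 and 11.0 CPM in mitotic, 6.52 and 7.07 CPM in early G1 and 8.44 and 6.05 CPM in late G1 libraries. Replicate 2 was the higher in asynchronous and mitotic cells (log2 ratio of replicate 1 to replicate 2 of -0.99 and -1.17), and the states overlapped. Dio3, the deiodinase gene at the other end of the cluster and the paternally expressed partner of Dlk1, is in the list of further imprinted genes. It was at 3.30 and 4.66 CPM in asynchronous, 19.2 and 19.5 CPM in mitotic, 10.5 and 10.1 CPM in early G1 and 13.4 and 12.1 CPM in late G1 libraries. Dio3 rose into mitosis by 2.29 (SE 0.20, adjusted p = 0.0002) and fell by 0.91 (SE 0.19, adjusted p = 0.0369) in early G1, a call that was lost without any 1 of the 6 synchronised libraries (adjusted p 0.103 to 0.309). In late G1 it was still higher than in asynchronous cells by 1.68 (SE 0.20, adjusted p = 0.0005).

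Other annotated transcripts of the cluster were low, and their summed level was highest at mitosis. Summed over 53 genes that lie between the 5 cluster genes studied here, levels were 2.11 and 2.33 CPM in asynchronous, 15.8 and 10.8 CPM in mitotic, 3.73 and 4.48 CPM in early G1 and 4.20 and 3.52 CPM in late G1 libraries. B830012L14Rik, a long noncoding RNA at chr12:109695586-109702587 between Rian and Mirg, had 7 and 2 counts in asynchronous, 70 and 54 in mitotic, 4 and 3 in early G1, with 4 and 4 in late G1 libraries. Its level rose by 3.70 (SE 0.47, adjusted p = 0.0008) into mitosis and fell by 4.09 (SE 0.48, adjusted p = 0.0062) by early G1. The fall was not called without mitotic replicate 1 or either early G1 library (adjusted p 0.0694 to 0.102). Mir3070b, a miRNA gene just beyond the end of Rtl1, had 1 and 1 counts in asynchronous, 43 and 26 in mitotic, 1 and 2 in early G1, with 4 and 1 in late G1 libraries. Gm27596, a short annotated RNA within Meg3, had 0 counts in both asynchronous libraries, 56 and 40 in mitotic, and 0 to 4 in G1 libraries. Not every transcript followed this course. DQ267102, a snoRNA gene inside one of the 10, had 9 and 5 counts in asynchronous and 2 and 1 in mitotic libraries and was called lower at mitosis (adjusted p = 0.0438). Gm34081, a long noncoding RNA between cluster genes, was at 0.398 and 0.659 CPM in asynchronous, 1.05 and 0.863 CPM in mitotic, 1.51 and 1.97 CPM in early G1 and 1.60 and 1.83 CPM in late G1 libraries. It was higher in late G1 than in asynchronous cells (1.71, SE 0.37, adjusted p = 0.0064), a call lost under voom (0.102).

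Summed over the 69 miRNA genes of these clusters, 41 of which had any read, levels were 0.995 and 1.12 CPM in asynchronous, 9.10 and 4.88 CPM in mitotic and 1.00 to 1.88 CPM in G1 libraries. The 23 snoRNA genes, of which 12 had reads, had 0.796 and 0.558 CPM in asynchronous, 1.85 and 0.95 CPM in mitotic, 0.614 and 1.08 CPM in early G1 and 1.5 and 1.03 CPM in late G1 libraries. The miRNA sums of the mitotic libraries stood above all others, whereas the snoRNA sums overlapped. The libraries were poly(A)-selected, and counts over such genes are no measure of mature miRNAs or snoRNAs.

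**Figure D4:**
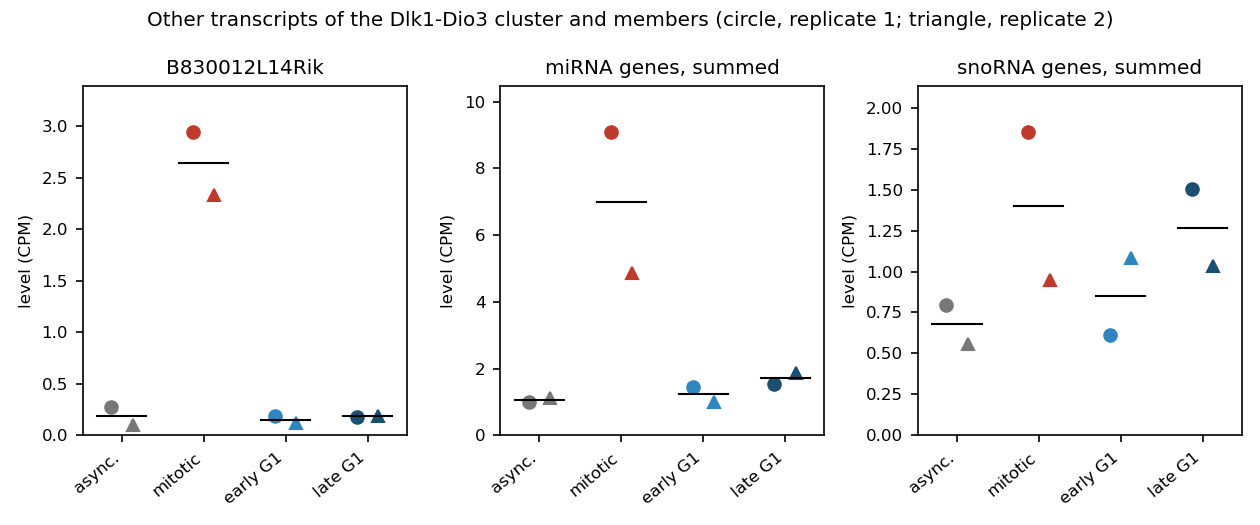
Level in CPM (linear axis from 0) of B830012L14Rik and of the summed miRNA and snoRNA genes in the clusters, by state, with circles for replicate 1, triangles for replicate 2 and a bar for the mean. The mitotic libraries lie at 2.33 and 2.95 CPM for B830012L14Rik against 0.101 to 0.279 CPM in the others, while the snoRNA sums of the states overlap.

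H19, the growth-restraining noncoding RNA of the H19-Igf2 cluster (chr7:142575529-142578143, minus strand), was highest in asynchronous, lower in mitotic and lowest in G1 libraries. Its levels were 137 and 106 CPM in asynchronous, 102 and 62.3 CPM in mitotic, 51.0 and 42.8 CPM in early G1 and 43.6 and 38.5 CPM in late G1 libraries. The 2 G1 states overlapped each other and lay below all asynchronous and mitotic libraries. The difference at mitosis was -0.57 (SE 0.24, adjusted p = 0.0901) and that from mitosis to early G1 was -0.81 (SE 0.24, adjusted p = 0.0969). The early G1 difference was called by DESeq2 (adjusted p = 0.0209), by voom (0.0125) and without either asynchronous library (0.0459 and 0.049). That at mitosis was called without a count filter (0.0075) and without mitotic replicate 1 (-0.96, 0.0258). H19 had fallen 2.00-fold from mitosis by late G1 (SE 0.24 on the log2 scale, adjusted p = 0.0392) and was 2.96-fold lower than in asynchronous cells (-1.57, SE 0.24, adjusted p = 0.0015). The call against mitosis was lost with scaling by total counts (adjusted p = 0.0552) and without mitotic replicate 1 (-0.60, adjusted p = 0.197), either early G1 library (0.0808 and 0.0797) or either late G1 library (0.196 and 0.254). Feeder fibroblast markers moved with H19 between asynchronous and synchronised cells, where 20 of 24 tested fell and 1 rose at mitosis, and their part in that difference was not tested. Between mitosis and late G1 the summed level of those markers, mostly Fn1 and Sparc, was 1728 to 2085 CPM against 1735 and 1844 CPM. Of the 24, 2 fell and 1 rose, with log2 fold changes from -2.29 to 2.17 (median -0.11). Their part in the change of H19 after mitosis was not tested.

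Igf2, the paternal growth factor gene of the same cluster (chr7:142650766-142666816, minus strand), was near the detection limit. It had 15 and 5 counts in asynchronous, 18 and 4 in mitotic, 21 and 28 in early G1, with 23 and 10 in late G1 libraries, or 0.173 to 1.08 CPM. Only the early G1 pair lay close together, and no comparison passed the test in the main analysis. With a term for replicate 1 of the asynchronous and mitotic groups Igf2 was called higher in early G1 than in mitosis (2.23, adjusted p = 0.0208) and higher in late G1 than in asynchronous cells (1.88, 0.0265). Without replicate 1 of both groups, an alternative chosen after seeing the data, 1 asynchronous and 1 mitotic library were left. The differences of Igf2 from mitosis were then 2.55 in early G1 and 2.10 in late G1. They rest on the mitotic library with 4 Igf2 counts. H19 outnumbered Igf2 in counts by 39.6 to 418 times in the 8 libraries. Igf2os, the antisense transcript that overlaps Igf2, had 4 and 0 counts in asynchronous, 40 and 17 in mitotic and 13 to 21 in G1 libraries. It was called higher at mitosis (adjusted p = 0.0079), a call lost under voom (0.107) and without mitotic replicate 1 (0.054). With the strand setting not known, reads of this pair cannot be told apart where they overlap.

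Peg10, a retrotransposon-derived gene needed for the placenta (chr6:4747306-4760517, plus strand), rose in steps and had the steadiest replicates of the paternally expressed genes. It was at 74.7 and 67.8 CPM in asynchronous, 176 and 152 CPM in mitotic, 262 and 286 CPM in early G1 and 291 and 276 CPM in late G1 libraries. The mitotic libraries lay above the asynchronous ones and the early G1 libraries above the mitotic ones, and the 2 G1 states overlapped. Peg10 rose 2.30-fold into mitosis (1.20, SE 0.13, adjusted p = 0.0004), by 1.67-fold to early G1 (0.74, SE 0.13, adjusted p = 0.0199) and was 3.98-fold above asynchronous cells in late G1 (1.99, SE 0.13, adjusted p = 5.9e-05). Against mitosis its late G1 level was 1.73-fold higher (0.79, SE 0.13, adjusted p = 0.0109), a call lost without either mitotic library (0.0591 and 0.0693) or either late G1 library (0.125 and 0.102).

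Mest, also known as Peg1, an alpha/beta-hydrolase-like protein of mesoderm (chr6:30723547-30748465, plus strand), was low in asynchronous cells and higher in the other states. Its levels were 30.2 and 10.5 CPM in asynchronous, 103 and 65.6 CPM in mitotic, 99.5 and 102 CPM in early G1 and 116 and 112 CPM in late G1 libraries. The lowest of the other 6 libraries was above both asynchronous ones. Mest rose 4.12-fold into mitosis (2.04, SE 0.42, adjusted p = 0.0063) and was 5.57-fold above asynchronous cells in late G1 (2.48, SE 0.42, adjusted p = 0.0023). The sizes depended on the asynchronous library used: without asynchronous replicate 1 they were 8.05-fold and 10.8-fold, and without asynchronous replicate 2 they were 2.79-fold and 3.77-fold. Each was called in those fits. Its differences from mitosis were 0.25 (SE 0.40, adjusted p = 0.751) in early G1 and 0.43 (SE 0.40, adjusted p = 0.526) in late G1. The last exon of Mest overlaps the end of Copg2 on the opposite strand. Copg2 was at 113.6 and 77.4 CPM in asynchronous libraries and 64.3 to 73.4 CPM in the others. The strand setting is not known, and the part of reads from this overlap in the levels of Mest was not tested.

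The 250 bases before 1 RefSeq start of Mest (chr6:30737800-30738049, plus strand, GRCm38.p6) lie in an intron of its longer transcripts and next to the first exon of the shorter ones. They hold 14 CG dinucleotides, against 7 in the 250 bases before its upstream RefSeq start, and the motif TGCCGC in the orientation GCGGCA at 2 places, in capitals, and are shown as the paternally expressed gene with the largest difference between late G1 and asynchronous cells.
Mest: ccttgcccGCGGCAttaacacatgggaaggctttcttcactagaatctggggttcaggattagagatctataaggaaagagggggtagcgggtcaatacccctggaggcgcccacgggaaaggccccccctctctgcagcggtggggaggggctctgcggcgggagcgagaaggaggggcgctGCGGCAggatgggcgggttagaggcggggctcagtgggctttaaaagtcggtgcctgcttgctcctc

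Peg3, a zinc finger protein of brain and placenta (chr7:6703892-6730431, minus strand), was not called in any comparison of the main analysis. It was at 199 and 80.2 CPM in asynchronous, 114 and 59.3 CPM in mitotic, 123 and 140 CPM in early G1 and 147 and 142 CPM in late G1 libraries. Replicate 1 was 2.48-fold and 1.92-fold above replicate 2 in asynchronous and mitotic cells, and the G1 libraries lay between the 2 asynchronous ones. The difference at mitosis was -0.69 (SE 0.41, adjusted p = 0.209). With no count filter Peg3 was called lower at mitosis (-0.67, adjusted p = 0.0002) and higher than in mitosis in early G1 (0.61, 0.0040) and in late G1 (0.74, 0.0002). With the term for replicate 1 it was called in the same 3 comparisons (-0.62, 1.24 and 1.38) and higher in late G1 than in asynchronous cells (0.75), with adjusted p of 9.2e-05 to 0.0007. Without replicate 1 of the asynchronous and mitotic groups, an alternative chosen after seeing the data, 1 library was left in each of them. The log2 fold changes of Peg3 were then -0.43 at mitosis, 1.15 from mitosis to early G1 and 1.28 to late G1. Late G1 against asynchronous cells gave 0.85. The spread in that fit came from the G1 pairs alone, which lay closer together than those of the other states. With that alternative all 10 genes were called between mitosis and early G1, where 7918 of all genes were called.

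The spread between replicates was uneven over the 10 genes. A difference of over 2-fold was found for Igf2, Peg3 and Mest in asynchronous cells, for Dlk1 and Igf2 in mitotic cells, for none in early G1 and for Igf2 in late G1. Over 12037 genes of sufficient level, 6.43% differed by over 2-fold in asynchronous, 1.61% in mitotic, 0.0582% in early G1 and 0.0665% in late G1 cells. Replicate 1 was higher in both asynchronous and mitotic cells for Peg3, Mest, Rian, H19, Peg10 and Igf2 and lower in both for Dlk1 and Mirg, with mitotic values of Mirg nearly equal (log2 ratio -0.0075), as the plot of replicate ratios shows. In early G1 the largest difference was that of H19, 1.19-fold.

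**Figure D5:**
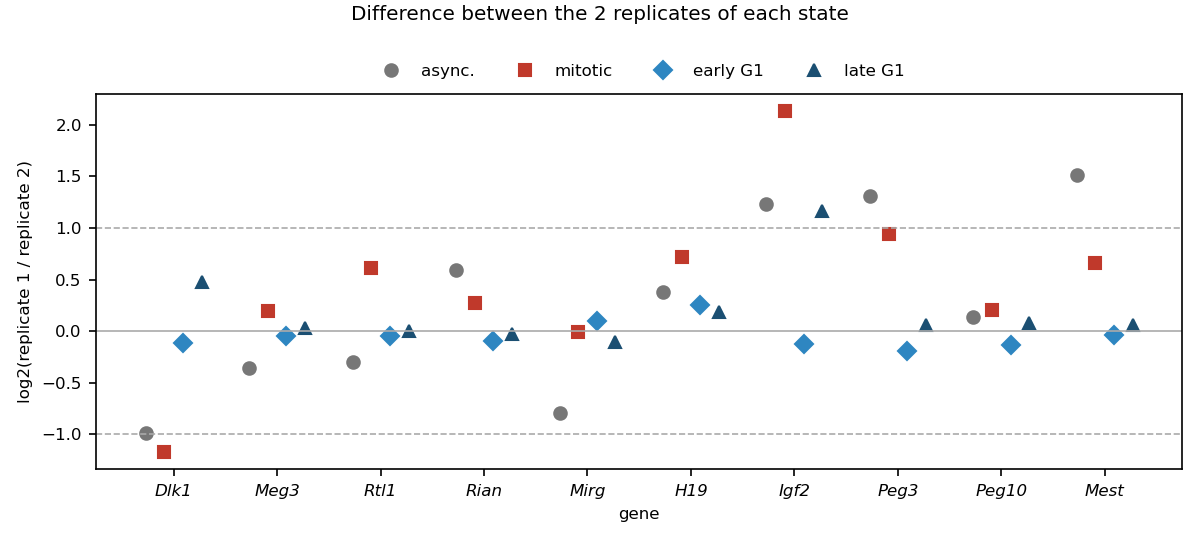
Log2 ratio of replicate 1 to replicate 2 for each gene, with 1 symbol per state, a solid line at 0 and dashed lines at a 2-fold difference. Mest (1.52) and Peg3 (1.31) stand out in asynchronous cells and Igf2 (2.14) and Dlk1 (-1.17) in mitotic cells, while the early G1 symbol furthest above 0 is that of H19 (0.25).

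Among 61 other imprinted genes, 52 were tested, and they moved in both directions. At mitosis 10 rose and 15 fell, a share of 48.1% called against 40.7% of all genes. Their median log2 fold change was -0.04, against -0.05 over all genes. Besides Dio3, Nespas, the antisense RNA of the Gnas cluster (2.52, SE 0.20, adjusted p = 0.0001), and Plagl1, a zinc finger gene of growth control (1.44, SE 0.32, adjusted p = 0.0093), rose most. Plagl1 was not called without asynchronous replicate 1 (0.0715) or mitotic replicate 2 (0.0557). Mkrn3, a ubiquitin ligase gene of the Prader-Willi region (-2.94, SE 0.27, adjusted p = 0.0002), Slc22a18 (-2.36, SE 0.38, adjusted p = 0.0022) and Ascl2, a transcription factor of trophoblast (-2.27, SE 0.23, adjusted p = 0.0003), fell most. From mitosis to early G1 Mkrn3 rose (2.20) and Ddc (-0.69), Dio3 (-0.91) and Nespas (-1.53) fell, 4 of 52 or 7.69%, against 4.63% of all genes. The calls of these 4 genes were each lost without mitotic replicate 1. Nespas was at 2.67 and 3.09 CPM in asynchronous, 18.1 and 14.9 CPM in mitotic, 5.81 and 5.64 CPM in early G1 and 4.56 and 4.36 CPM in late G1 libraries, high at mitosis alone, as Rtl1 was. In late G1 15 of the 52 were higher and 12 lower than in asynchronous cells, a share of 51.9% against 48.7% of all genes.

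A list of 19 imprint-related factors held not only those that keep imprints but also enzymes that add or oxidise DNA methylation. Of the 19, 18 were tested. Of these 9 rose and 1 fell at mitosis (55.6% called), and 12 were higher and 1 lower in late G1 than in asynchronous cells (72.2%). Over all genes tested the shares called were 40.7% and 48.7%. Dnmt3b, a de novo DNA methyltransferase, rose by 1.91 (SE 0.16, adjusted p = 0.0002) and Tet2, which oxidises methylated cytosine, by 1.46 (SE 0.31, adjusted p = 0.0072) at mitosis, with 0.052 for Tet2 without mitotic replicate 1, while Dppa3, a protector of methylation in the early embryo, fell by 1.47 (SE 0.22, adjusted p = 0.0015). Zfp57, which binds methylated imprinting control regions, was at 258 and 285 CPM in asynchronous, 658 and 576 CPM in mitotic, 480 and 482 CPM in early G1 and 369 and 377 CPM in late G1 libraries. It fell from mitosis to late G1 by 0.72 (SE 0.12, adjusted p = 0.0116), a call lost without mitotic replicate 1 (0.0822) or either late G1 library (0.139 and 0.127). No factor of this list was called between mitosis and early G1, where 4.63% of all genes were and 2 of 18 had an unadjusted p under 0.05.

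In the IGF axis, the receptors, binding proteins and adaptors around Igf2, 12 of 14 genes changed at mitosis, 4 up and 8 down (85.7% called). Over all genes tested 40.7% were called there, 18.3% higher and 22.4% lower. Irs2, an adaptor of insulin and IGF receptors, rose by 1.86 (SE 0.16, adjusted p = 0.0002). Igfbp4, a secreted binding protein, fell by 5.58 (SE 0.25), from 179 and 185 CPM to 4.26 and 3.37 CPM, and Igfbp5 by 3.86 (SE 0.27). Insr, the insulin receptor, fell by 1.31 (SE 0.23, adjusted p = 0.0030). The fibroblast markers fell between the same libraries, and their part in the falls of the binding proteins was not tested. In G1 0 of 14 were called in early G1 against mitosis, with 5 at an unadjusted p under 0.05, and 1 in late G1 against mitosis. Over all genes tested 4.63% and 9.48% were called in these comparisons, in that order.

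Genes within 200 kb of the 10 moved in both directions at mitosis, some with the gene beside them and some against it. Of 18 such neighbours tested, 6 rose and 6 fell, where 18.3% of all genes were called higher and 22.4% lower. Casd1 near Peg10 (1.17, SE 0.33) and Cep41 near Mest (0.67, SE 0.17) rose as Peg10 and Mest did, while Sgce and Copg2 near them fell. Without mitotic replicate 1 the rises of Casd1, Cep41, Gm26945, Igf2os and Zim2, 5 of the 6, and the fall of Copg2 were not called. Next to Peg10, Sgce, the paternally expressed epsilon-sarcoglycan gene that starts beside it, went the other way, from 14.6 and 12.3 CPM in asynchronous to 6.24 and 6.52 CPM in mitotic, 5.90 and 4.91 CPM in early G1 and 4.24 and 3.47 CPM in late G1 libraries. Sgce fell by 1.08 (SE 0.20, adjusted p = 0.0040) at mitosis and was 1.80 lower on the log2 scale in late G1 than in asynchronous cells (-1.80, SE 0.21, adjusted p = 0.0004). Next to Peg3, Usp29 fell at mitosis (-1.26, SE 0.33, adjusted p = 0.0167), a call lost without mitotic replicate 2 (0.0721) and in the fit of the 2 groups alone (0.0707). Next to H19, Mrpl23, a mitochondrial ribosomal protein gene, fell from 4.98 and 5.07 CPM to 0.548 and 0.389 CPM at mitosis (-3.41, SE 0.32, adjusted p = 0.0002).

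By Pearson correlation of log2 CPM over the 8 libraries, the gene most like Rtl1 was Nespas (r = 0.991), followed by Tpx2 (0.990). Those most like Meg3 were Gtf3c2 (0.990) and Dtx2 (0.982), those most like Rian were Xrn2 (0.993) and Kpna6 (0.990), and those most like Mirg were Tsc22d1 (0.988) and Gpatch4 (0.984). For Peg10 they were Dhx29 (0.999) and Tada2b (0.997), and for Mest Usp12 (0.999) and Canx (0.998). H19 was most like Zfp827 (0.992) and Nes (0.988). These coefficients are the highest of about 10610 genes over 8 libraries in 4 states that all genes share, and are given as a description. Among the 10 themselves, Rian, Peg10 and Mest had the most similar courses (r = 0.923 to 0.950), while Meg3 and Rian had r = -0.538.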

How the data were processed

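RNA of 8 samples was measured, 4 states with 2 libraries each. The table that the authors deposited gives whole-number read counts for each Ensembl gene, not normalised. Per the labels' protocols, libraries were poly(A)-selected, strand-marking and read as single 50-base reads. TopHat2, SAMtools, HTSeq and mm10 are named, with no versions, per the submitters' processing notes. Neither the annotation release nor the strand setting is stated there. Symbols and coordinates are from GENCODE M21 (GRCm38), miRNA and promoter sequences from RefSeq (GRCm38.p6).

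Counts were tested in R 4.3.3 with edgeR 4.0.16: filterByExpr (minimum count 10), TMM, and the quasi-likelihood test over all 8 libraries, with 4 residual degrees of freedom, no replicate block and Benjamini-Hochberg adjustment over 19101 genes. Tests were two-sided. Levels are TMM-scaled CPM, and changes log2 fold changes with their standard errors. Replicate numbers did not pair the samples. Alternatives used DESeq2 1.42.0, limma 3.58.1 and other scalings, filters and samples. On simulated data, 51 of 100 genes changed 2-fold and 91 of 100 changed 4-fold were found in the comparison of mitotic with asynchronous cells, beside 10 false calls among 18513 genes. The simulation changed only those genes and gave every state the same spread for a gene, whereas the real states differed in spread. It therefore cannot show how many true or false calls the real data hold.

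The 10 genes and the gene lists were chosen with earlier results of these data known. Named list genes are the called ones with the largest change, at most 3 per list and direction, where the average log2 CPM reached 1.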

Additional observations from a re-analysis of the deposited data

How the results depend on the processing

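Over 17 alternatives, the 50 tests of the 10 genes kept their direction and call in 719 of 849 values, lost a call in 42, gained one in 70 and changed sign in 18. The genes called between late G1 and asynchronous cells stayed within 5 to 8 of the main 6. For mitotic against asynchronous cells 6 were called in the main analysis and 8 with no count filter, where 7767 and 8908 of all genes were called. A term for replicate 1 of the asynchronous and mitotic groups gave 9 there (11017 of all genes), and the fit of the 2 groups alone called 3 (3883 of all genes). For early G1 against mitosis (3) it called 5, no count filter 7, a term for replicate 1 of the asynchronous and mitotic groups 10, DESeq2 5, voom 6, and leaving out replicate 1 of both groups, added after seeing the data, 10. Leaving out 1 library gave 0 to 6. For late G1 against early G1 (0) the corresponding counts were 3 for the 2 groups alone, 1 for no filter, 1 for voom and 2 without both replicates, with 0 to 1 when leaving out 1 library. For late G1 against mitosis (5) they were 8 with the replicate term and 10 without both replicates, with 1 to 6 when leaving out 1 library. The causes were not tested. The block and the leave-one-out fits of the states not compared change the residual degrees of freedom.

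The log2 fold changes that changed sign belonged to tests that were not called in the main analysis. Igf2 at mitosis was -0.13 with voom and -0.53 without both replicates, and from -1.30 (without mitotic replicate 1) to 0.88 (without asynchronous replicate 1) when leaving out 1 library, with -0.35 without asynchronous replicate 2. From early to late G1 it was -1.14 and 0.015 without late G1 replicate 1 and 2. Dlk1 ranged from -0.15 (without mitotic replicate 2) to 1.10 (without asynchronous replicate 2) at mitosis, from -0.70 to 0.47 in early G1 and from -0.61 to 0.56 in late G1 against mitosis (without mitotic replicate 1 and 2), being 0.084 in the last without late G1 replicate 2, and from -0.17 to 0.31 between the G1 states (without late G1 replicate 1 and 2). Against asynchronous cells in late G1 it was -0.064 with the replicate term and -0.015 without both replicates, and from -0.016 to 0.97 without asynchronous replicate 1 and 2. Peg3 ranged from -1.22 (without mitotic replicate 1) to 0.12 (without asynchronous replicate 1) at mitosis, and from -0.46 to 0.85 in late G1 against asynchronous cells (without asynchronous replicate 2 and 1). Mest ranged from -0.041 to 0.61 in early G1 against mitosis (without mitotic replicate 2 and 1), Peg10 from -0.015 to 0.11 between the G1 states (without early G1 replicate 1 and 2), and Mirg was 0.33 in late G1 against asynchronous cells without asynchronous replicate 2 (adjusted p = 0.0447, edgeR).

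With the replicate block 7, 4, 0, 5 and 6 of the 10 genes were called in the 5 comparisons. Of all genes 7889, 803, 0, 1744 and 9430 were called. The order is mitotic against asynchronous, early G1 against mitotic, late G1 against early G1, late G1 against mitotic and late G1 against asynchronous cells. The block added H19 to the first (adjusted p = 0.019) and to the second (0.0353) and lost none. Deviations of same-numbered libraries correlated at 0.621 between asynchronous and mitotic cells and at -0.365 to 0.0572 between the other states, so the numbers were not taken as pairs.

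Counts over all genes at mitosis were 7767 in the main analysis, 3883 for the 2 groups alone, 4294 with voom, 4737 without mitotic replicate 1 and 11700 without both replicates. In early G1 against mitosis 885 compared with 2759 (2 groups), 2362 (no filter), 5882 (replicate term), 1412 (DESeq2), 3040 (voom), 7918 (without both replicates) and 42 to 4518 leaving out 1 library. Between the G1 states 0 compared with 1493, 58, 16, 27, 572 and 1518 in the same order, and 0 to 25. In late G1 against mitosis 1810 compared with 3959 (2 groups), 3289 (no filter), 6593 (replicate term), 4266 (voom), 8525 (without both replicates) and 73 to 5546 leaving out 1 library. In late G1 against asynchronous cells 9305 compared with 5096 and 5166 without either late G1 library. No scaling moved the median of all genes by over 0.1. Igf2 had 4 to 28 counts per library.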
